A study of Mus musculus with 12 samples.

Results

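The tumour necrosis factor (TNF) superfamily of ligands and receptors was followed in mouse liver RNA on 12 Agilent mouse arrays of 2 colours. Members were the gene probes whose name on the array began with Tnfrsf or Tnfsf, or was Tnf, Lta, Ltb, Ltbr, Fas, Fasl, Cd40, Cd27, Eda2r or Ngfr. This rule took 63 of 41174 probes, for 44 genes. The name Tnfsf5ip1, taken by the prefix, is now Psmg2, a proteasome assembly chaperone and no member of the family, which left 43 family genes. Of the 44 genes, 27 were bright enough to be tested and 17 were too dim. The older names Tnfrsf7, Tnfsf7 and Tnfrsf19l were updated through their accessions to Cd27, Cd70 and Relt.

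Each array carried RNA of an Abcb4(-/-) liver in one dye and RNA of an Abcb4(+/+) liver in the other. Abcb4 is the canalicular pump that brings phosphatidylcholine into bile, and its loss in mice leads to a sclerosing bile duct disease. The knockout mice had been fed for 9 weeks with cholic acid (CA, 6 arrays) or with ursodeoxycholic acid (UDCA, 6 arrays). The study chose these bile acids to set disease activity high with CA and low with UDCA. Every knockout liver came from a bile acid-fed mouse, so the ratio to Abcb4(+/+) holds genotype and feeding together. Each diet group held 5 unpooled livers. The arrays numbered 1 to 3 carried the knockout in Cy5 and those numbered 4 to 6 in Cy3, and 1 array per group repeated a liver as a technical dye swap. The labels do not say which, so p-values treat 6 arrays as 6 samples and are too small by an amount that was not tested. Age, sex, strain, doses and the feeding of the Abcb4(+/+) mice were not stated in the labels.

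Ligands of the TNF superfamily are trimeric proteins, on the surface of immune and other cells or shed from it. Their receptors fall into those with a death domain, which can lead to caspases, those that bind TRAF adaptors and lead to NF-κB, and decoys that hold a ligand without passing a signal. In liver the family is known for hepatocyte death and survival, for duct cell growth through the TWEAK receptor, and for the support of B cells and lymphoid tissue by BAFF, APRIL and lymphotoxin.

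The signals behind the values were those of 60-base probes. The probes below are those of 8 members described at length, with positions in mm7 as the scanner files give them. Capitals mark a run of 19 bases that occurs more than once inside the Tnfrsf11a probe.
Tnfsf13b (BAFF), chr8:10005713-10005772, plus strand: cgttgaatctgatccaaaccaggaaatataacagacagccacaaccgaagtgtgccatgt
Tnfsf13 (APRIL), chr11:69764729-69764788, minus strand: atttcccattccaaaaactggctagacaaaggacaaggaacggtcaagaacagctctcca
Tnfrsf13b (TACI), chr11:61230555-61230614, plus strand: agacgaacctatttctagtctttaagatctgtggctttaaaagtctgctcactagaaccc
Ltb, chr17:33292571-33292630, plus strand: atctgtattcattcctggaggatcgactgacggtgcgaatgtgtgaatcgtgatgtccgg
Tnfrsf12a (TWEAK receptor), chr17:21855654-21855713, minus strand: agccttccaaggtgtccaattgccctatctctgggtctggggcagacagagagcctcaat
Tnfrsf19 (TROY), chr14:55831784-55831843, minus strand: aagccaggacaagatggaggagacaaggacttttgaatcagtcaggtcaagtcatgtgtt
Tnfrsf11a (RANK), chr1:105746736-105746795, plus strand: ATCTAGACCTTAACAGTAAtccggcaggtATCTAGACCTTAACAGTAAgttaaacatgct
Tnfrsf11b (osteoprotegerin), chr15:54311325-54311384, minus strand: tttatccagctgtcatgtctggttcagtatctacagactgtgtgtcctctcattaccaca

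No pair among the 63 probes shared a run of 15 bases or more; the longest shared run was 13 bases over 1953 pairs. Whether a probe lies in a coding exon or elsewhere in its gene was not assigned, since no annotation of mm7 was used.

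Values below are log2 ratios, with the knockout on top, after background correction with an offset of 50 and loess normalization, and estimates are limma fits with their standard error (SE). The offset shrinks the ratios of dim probes. A gene was called at a Benjamini-Hochberg adjusted p under 0.05 over all 21688 tested probes. The targeted gene Abcb4 checked the labels: a probe for it was lower in the knockout on all 12 arrays, with estimates of -2.73 in CA-fed and -1.77 in UDCA-fed knockout livers, while a second probe gave -0.73 and -1.28 and was higher on 2 arrays. Median raw intensity over spots lay between 250.2 and 1296 in green and between 59.2 and 158.2 in red. Of the spots, 41.6% to 68.4% were well above background in green and 31.6% to 62.4% in red. Pancreas markers were low on CA arrays: all 5 tested fell, with a median of -1.3, led by Amy2 at -1.998 and Cel at -1.62.

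Markers of other cells moved with the groups, and their part in the results below was not tested. Fewer cells of a type and less RNA per cell cannot be told apart in whole liver. Of all tested genes 37.8% rose and 22.4% fell with CA, and 17.2% rose and 8.76% fell with UDCA. Of the hepatocyte markers, 0 of 9 rose and 3 fell with CA, and 0 rose and 2 fell with UDCA; Tdo2 and Hnf4a led with CA at -1.12 and -0.61. Array medians of this list ran from -2.03 to 1.88 on CA arrays and from -2.74 to 1.67 on UDCA arrays, and each of its probes was saturated on 1 to 5 CA arrays. Cholangiocyte markers rose for 10 of 10 with CA and 6 of 10 with UDCA, with medians of 2.71 and 1.22 and array medians between 1.72 and 3.54 and between 0.40 and 2.39, led with CA by Sox9 at 3.69 and Epcam at 3.57. Monocyte and macrophage markers rose for 9 of 10 and 8 of 10, with medians of 2.32 and 1.17. Array medians lay between 1.47 and 2.79 and between 0.46 and 1.58. Ccr2 at 4.15 and Cd14 at 3.73 led with CA, but a second Ccr2 probe gave 1.04 with CA and 0.19 with UDCA. Kupffer cell markers fell for 6 of 6 with CA, led by Clec4f at -3.37 and Marco at -2.29, while with UDCA 2 rose and 2 fell. Stellate cell and fibroblast markers rose for 11 of 11 and 10 of 11, led by Lum at 3.82 and Col1a1 at 3.08. Endothelial markers were mixed, with 4 of 10 higher and 2 lower with CA, led by Cd34 at 3.12 and Vwf at 1.03. Both tested neutrophil markers rose with CA, S100a9 by 1.53 and S100a8 by 1.27, and 5 others were too dim.

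The rule used no measured value, but the filter on dim probes did. Of the 27 tested genes, 14 passed only through knockout channels, so that a higher value in the knockout was built into their selection. Among these, 9 passed only through the knockout channel of the CA arrays: Cd40, Tnf, Tnfrsf10b, Tnfrsf11a, Tnfrsf13b, Tnfrsf13c, Tnfsf10, Tnfsf13b and Tnfsf8. For these 9 the filter also favoured a higher value with CA than with UDCA. Only 11 passed in all 4 channels: Fas, Ltb, Ltbr, Ngfr, Psmg2, Tnfrsf12a, Tnfrsf14, Tnfrsf19, Tnfrsf1a, Tnfrsf1b and Tnfsf13. The plot of arrays with signal shows the pattern over the 44 genes.

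**Figure D1:**
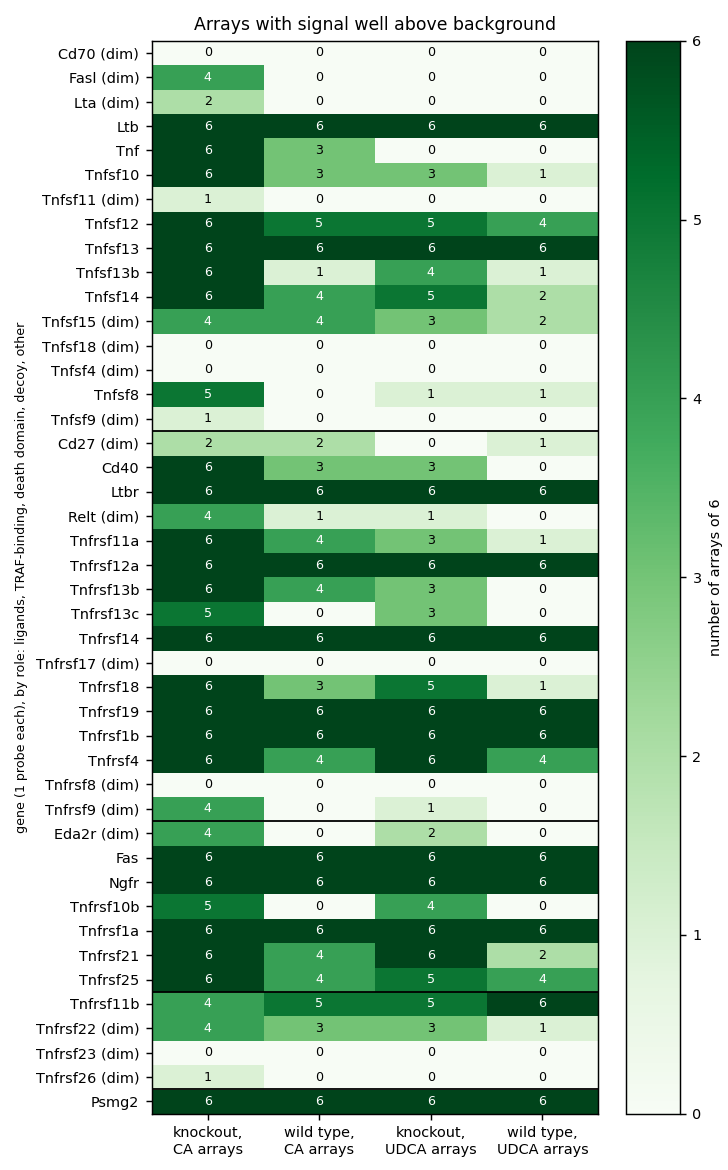
Number of arrays, of 6, on which a gene's probe was well above background (colour and digit), in knockout and wild-type channels of the CA arrays and of the UDCA arrays. Rows are the 44 genes, grouped by role from ligands at the top to Psmg2 at the bottom; for Tnf the numbers are 6 and 3 on CA arrays and 0 and 0 on UDCA arrays.

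With CA feeding, 17 of the 27 tested genes were higher in knockout than in wild-type liver and 1 was lower; over all 15373 tested genes 37.8% were higher and 22.4% lower, 60.3% in all. The median log2 ratio of the 27 was 0.51, against 0.10 over all tested genes. Of the 17, 9 rose at least 2-fold, against 2054 of the 5818 called higher over all tested genes. Among the 9, Cd40, Tnfrsf11a, Tnfrsf13b, Tnfrsf21 and Tnfsf13b passed the filter only through knockout channels. With UDCA feeding 8 were higher and 1 lower, against 17.2% and 8.76% of all tested genes (26% in all), with a median of 0.23 against 0.04. In the CA minus UDCA difference 9 were higher and 2 lower, against 18.8% and 8.89% of all tested genes. Among the 11 genes that passed in all 4 channels, 7 were higher and 0 lower with CA, against 30% and 27.6% of the genes that passed in the same way. For UDCA these counts were 5 and 0, against 16.8% and 12%. For the difference they were 2 and 1, against 14.4% and 11.7%. With slide as a block, an intercept per slide took the place of the dye effect. CA arrays 1 and 2, alone on slide 1 with the knockout in Cy5, then added nothing to the estimated ratios. Neither did UDCA array 6, alone on slide 5. Such estimates therefore rest on fewer arrays and are no plain adjustment for slide. The UDCA calls that held with slide as a block were those of Ltb, Tnfrsf1a and Fas. Tnfrsf12a could not be fitted, since its value on slide 5 was missing. With median centring in place of loess the UDCA calls of Fas, Tnfrsf10b, Tnfrsf11b, Tnfrsf1a, Tnfsf13, Tnfsf13b and Tnfsf14 were lost (adjusted p between 0.0505 and 0.203). The same setting ended the CA calls of Ngfr, Tnfrsf13c, Tnfrsf1a, Tnfsf10 and Tnfsf8 (adjusted p between 0.076 and 0.122). In the difference it ended those of Cd40, Fas, Tnf, Tnfrsf11b, Tnfrsf21, Tnfsf13 and Tnfsf8 (adjusted p between 0.0526 and 0.692). With the Feature Extraction ratios Cd40, Tnfrsf11a, Tnfrsf13b, Tnfrsf18 and Tnfrsf21 were called higher with UDCA, and Tnfrsf14 lower. The diets were never on the same array, so their difference goes through the wild-type RNA of each array and is indirect.

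**Figure D2:**
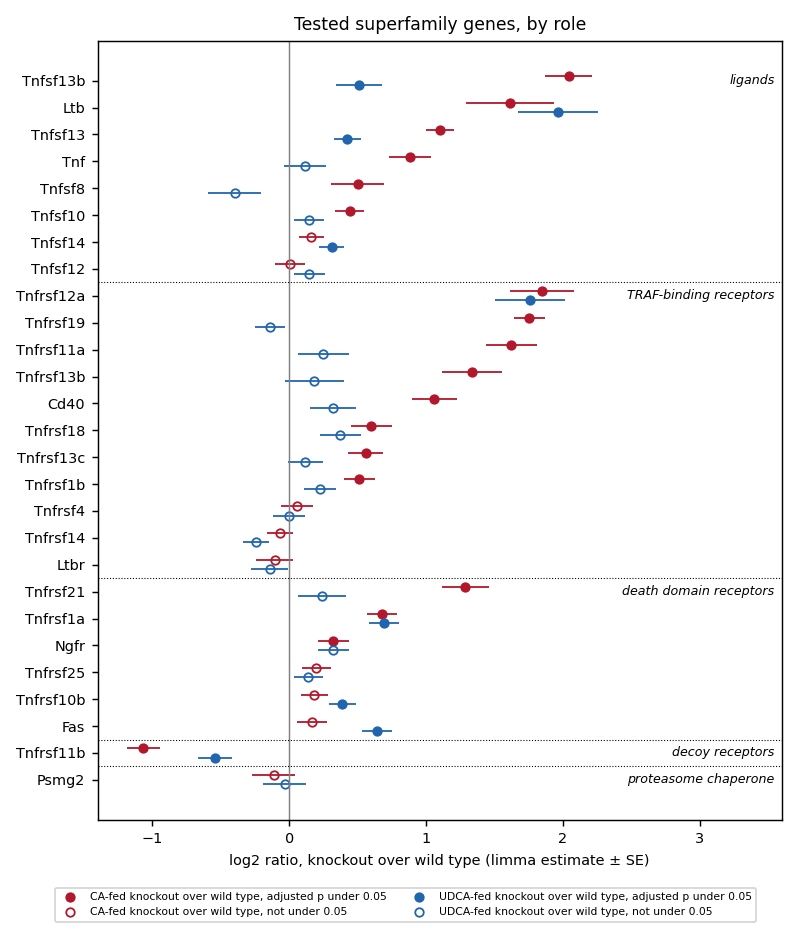
Fitted log2 ratio of knockout over wild type (horizontal axis, limma estimate with its SE as the bar) for the 27 tested genes, by role, with CA in red above UDCA in blue. Filled points have an adjusted p under 0.05; Tnfsf13b lies at 2.04 with CA and 0.51 with UDCA, and Tnfrsf11b at -1.07 and -0.54.

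Of the 16 ligand genes, 8 were tested. With CA 6 of these rose and with UDCA 4, against 37.8% and 17.2% of all tested genes. Tnf, Tnfsf8, Tnfsf10 and Tnfsf13b passed the filter only through the CA knockout channel. Of all genes that did so, 58.6% were called higher with CA. Tnfsf14 passed only through the knockout channels of the CA and UDCA arrays, so the filter favoured a higher knockout value for it too. The median ratio of the 8 was 0.69 with CA and 0.23 with UDCA. Tnfsf13b, which encodes BAFF, the survival factor of mature B cells, rose under both diets. Its probe was well above background in knockout liver on 6 CA and 4 UDCA arrays, against 1 array of each diet in wild type. On CA arrays 1 to 6 it gave ratios of 3.33, 2.26, 2.34, 1.36, 1.74 and 1.23, against 0.60, 0.56, 0.55, 0.13, 0.34 and 0.88 on UDCA arrays 1 to 6. Every array was above 0, and every CA array lay above every UDCA array. The estimate was 2.04 ± 0.169 with CA (adjusted p = 9.16e-08) and 0.51 ± 0.169 with UDCA (adjusted p = 0.0396), and the difference was 1.53 ± 0.239 (adjusted p = 0.000413). On the slides with both diets CA exceeded UDCA by 1.16 and 0.89. With CA the ratio averaged 2.64 where the knockout was in Cy5 and 1.44 where it was in Cy3. The UDCA call was lost without CA array 5 or any of UDCA arrays 1, 4, 5 or 6, and with slide as a block (0.45, adjusted p = 0.0856), the lowest estimate being 0.35 without UDCA array 6 (adjusted p = 0.153). It was also lost with no dye effect (adjusted p = 0.113), with no filter on dim probes (adjusted p = 0.0569) and with median centring (adjusted p = 0.0702). A second Tnfsf13b probe was too dim to test.

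Tnfsf13, which encodes the related plasma cell factor APRIL, was bright in all 4 channels. Its ratios lay close together, at 1.25, 1.0, 0.93, 1.0, 1.12 and 1.33 on CA arrays 1 to 6, against 0.66, 0.40, 0.31, 0.26, 0.19 and 0.73 on UDCA arrays 1 to 6. The diets did not overlap, and CA exceeded UDCA by 0.59 on slide 3 and 1.07 on slide 4. The estimate was 1.10 ± 0.0998 with CA (adjusted p = 2.34e-07) and 0.42 ± 0.0998 with UDCA (adjusted p = 0.00562), with a difference of 0.68 ± 0.141 (adjusted p = 0.00287). The UDCA estimate with slide as a block was 0.30 and not called (adjusted p = 0.136). Median centring ended both the UDCA call (adjusted p = 0.117) and that of the difference (0.61, adjusted p = 0.581). Beside BAFF, APRIL and their receptors, 4 of 9 B and plasma cell markers were bright enough to test. Of these, 3 rose with CA, with a median over the 4 of 1.10 and array medians between 0.66 and 1.75. With UDCA 1 rose, with a median of 0.22 and array medians between -0.06 and 0.82. The leading genes with CA were Blnk at 2.19 and Jchain at 1.36; Cd79a, Ms4a1, Cd22 and Pax5 were among those too dim. Their part in the result was not tested.

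Ltb, lymphotoxin beta, which pairs with lymphotoxin alpha to engage the lymphotoxin beta receptor, rose under both diets. Its ratios on CA arrays 1, 2, 4, 5 and 6 were 2.64, 3.18, -0.32, 1.40 and 0.69, with the value of array 3 left out because its spot was flagged as an outlier. On UDCA arrays 1 to 6 they were 2.03, 1.34, 2.36, 1.96, 1.57 and 2.53. CA array 4 alone lay below 0, and the UDCA values fell within the wide range of the CA values. The estimate was 1.62 ± 0.322 with CA (adjusted p = 0.000629) and 1.97 ± 0.292 with UDCA (adjusted p = 0.000203). The difference of -0.35 ± 0.435 was not called (adjusted p = 0.59, 95% interval -1.28 to 0.58). With slide as a block the CA estimate was 1.0 and the difference was -1.07 with an adjusted p of 0.034. The probe was saturated in the knockout channel on 3 CA arrays. Its receptor gene Ltbr was not called, at -0.11 with CA and -0.14 with UDCA, and was itself saturated in knockout on 3 CA and 2 UDCA arrays and in wild type on 2 and 2, while the partner gene Lta was too dim.

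Tnf, the founding cytokine of the family, was low. It was well above background in the knockout channel of all 6 CA arrays and in the wild-type channel of 3, against 0 arrays in either channel with UDCA. Ratios of 1.62, 1.76, 0.46, 0.71, 0.48 and 0.28 were measured on CA arrays 1 to 6, against 0.09, 0.17, 0.12, 0.05, 0.14 and 0.13 on UDCA arrays 1 to 6. CA arrays 1 and 2, which shared a slide, were far above the other 4. The estimate with CA was 0.88 ± 0.153 (adjusted p = 0.000157). With UDCA neither channel was measured above background, so the ratio there gives no level, and the fitted difference of 0.77 ± 0.216 (adjusted p = 0.0171) is no measured difference between the diets. On the slides that held both diets CA exceeded UDCA by 0.35 on slide 3 and by 0.18 on slide 4. With slide as a block the difference was 0.38 and was no longer called (adjusted p = 0.144), and the CA estimate was 0.50. Monocyte and macrophage markers rose for 9 of 10 with CA, and for 8 of 10 with UDCA, where Tnf was not measured above background. Their part in the Tnf result was not tested.

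The other ligands changed less. Tnfsf10, which encodes the death ligand TRAIL, rose with CA by 0.44 ± 0.107 (adjusted p = 0.00235) and stood at 0.14 with UDCA (adjusted p = 0.371). Tnfsf8, the ligand of CD30 on activated lymphocytes, rose with CA by 0.50 ± 0.193 (adjusted p = 0.0353), a call lost without any of CA arrays 2 to 5 and with slide as a block (0.59, adjusted p = 0.0626). With UDCA it stood at -0.40 ± 0.193 (adjusted p = 0.157), where array 5 at -1.98 was far from the rest. The difference for Tnfsf8 was 0.90 ± 0.272 (adjusted p = 0.0241), with 0.47 on slide 3 and 0.68 on slide 4. That call was lost with slide as a block (1.03, adjusted p = 0.0711) and without any of CA arrays 2, 4 or 5 or UDCA array 1. Its probe was well above background on 1 UDCA array in knockout and 1 in wild type, so the UDCA side of this difference was hardly measured. Since its wild-type signal was not well above background on any CA array, the mean knockout signal was at least 1.39-fold higher there. This bound sets the mean of the knockout against, per array, the higher of the lowest well-measured signal and the probe's own. It carries no sampling error. Tnfsf14, which encodes LIGHT, was at 0.16 with CA (adjusted p = 0.134) and rose with UDCA by 0.31 ± 0.0903 (adjusted p = 0.0201), a call lost without any of UDCA arrays 1, 4, 5 or 6 and with slide as a block (0.26, adjusted p = 0.17). Tnfsf12, which encodes TWEAK, was at 0.01 with CA and 0.15 with UDCA (adjusted p = 0.972 and 0.393).

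Of the 16 genes listed as TRAF-binding receptors, 11 were tested. With CA 8 of these rose and with UDCA 1, against 37.8% and 17.2% of all tested genes. Cd40, Tnfrsf11a, Tnfrsf13b, Tnfrsf13c and Tnfrsf18 passed the filter only through knockout channels. Of all genes that did so, 58.9% were called higher with CA. The median ratio of the 11 was 0.60 with CA and 0.18 with UDCA. In the CA minus UDCA difference 4 of the 11 were higher, against 18.8% of all tested genes. Tnfrsf12a, the receptor of TWEAK and the only one of the 11 called with UDCA, rose under both diets. Ratios on CA arrays 1 to 6 were 2.16, 2.71, 2.34, 0.21, 2.02 and 1.64, against 1.56, 1.25, 2.16, 1.87 and 2.20 on UDCA arrays 1 to 5. The value of UDCA array 6 was left out because its spot was flagged. CA array 4 was far below the other CA arrays, and without it the CA estimate was 2.17. The estimate was 1.85 ± 0.232 with CA (adjusted p = 1.02e-05) and 1.76 ± 0.256 with UDCA (adjusted p = 0.00017). The difference was 0.08 ± 0.345 (adjusted p = 0.885), with a 95% interval of -0.66 to 0.83. In the knockout channel the probe was saturated on 3 CA and 2 UDCA arrays.

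Tnfrsf19, which encodes TROY, a receptor known from epithelial stem and progenitor cells, behaved otherwise. On CA arrays 1 to 6 it gave ratios of 1.89, 1.02, 1.83, 1.84, 2.12 and 1.83, against -0.38, -0.17, -0.18, 0.02, 0.00 and -0.12 on UDCA arrays 1 to 6. The lowest CA array stood well above the highest UDCA array. The estimate was 1.76 ± 0.111 with CA (adjusted p = 6.83e-09) and -0.14 ± 0.111 with UDCA (adjusted p = 0.414). The difference of 1.90 ± 0.157 (adjusted p = 6.76e-06) was the largest among the tested members, with 2.39 on slide 3 and 1.89 on slide 4. The probe was well above background in all 4 channels of all arrays. A second Tnfrsf19 probe was dim on every array, with CA ratios between -0.29 and 0.25. The cholangiocyte markers given above were also higher with CA than with UDCA. In the difference 9 of 10 were higher, against 18.8% of all tested genes, with a median difference of 1.23.

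Tnfrsf11a encodes RANK, the receptor of RANK ligand on osteoclast precursors and other cells. It had ratios on CA arrays 1 to 6 of 2.44, 2.18, 1.76, 1.20, 1.42 and 0.75, against 0.07, 0.12, 0.23, -0.12, 0.02 and 1.16 on UDCA arrays 1 to 6. UDCA array 6 stood apart from the other UDCA arrays and inside the CA range. The estimate was 1.63 ± 0.186 with CA (adjusted p = 2.76e-06) and 0.25 ± 0.186 with UDCA (adjusted p = 0.383), with a difference of 1.38 ± 0.263 (adjusted p = 0.00168). The slides with both diets gave 1.32 and 0.70. Tnfrsf11a passed the filter only through the CA knockout channel. On UDCA arrays its probe was well above background on 3 in knockout and 1 in wild type, so that side was hardly measured. The probe is the one with the repeated run, and another Tnfrsf11a probe, too dim to test, had CA ratios between -0.14 and 1.11. The gene of RANK ligand, Tnfsf11, was too dim.

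**Figure D3:**
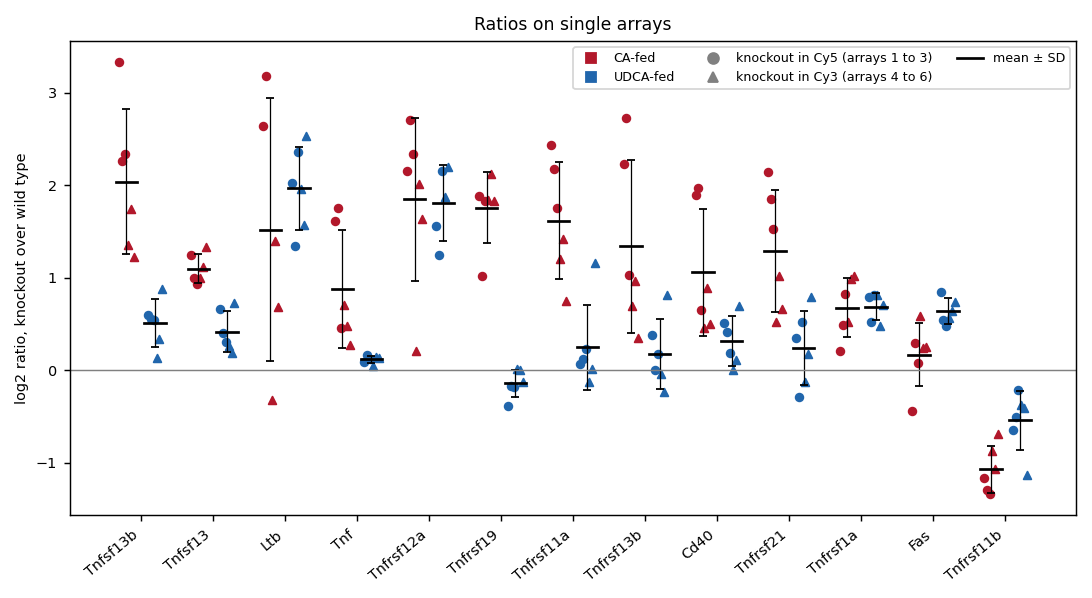
Log2 ratio of knockout over wild type on each array for 13 members, with CA arrays in red left of UDCA arrays in blue, circles for the knockout in Cy5 and triangles for it in Cy3; the black line and bar are the mean and SD. The Tnfrsf19 arrays separate by diet (1.02 to 2.12 with CA, -0.38 to 0.02 with UDCA), whereas those of Ltb, Tnfrsf12a and Tnfrsf1a overlap.

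Tnfrsf13b, which encodes TACI, a receptor of BAFF and APRIL on B cells, had ratios on CA arrays 1 to 6 of 2.23, 2.73, 1.03, 0.70, 0.97 and 0.35, against 0.38, 0.00, 0.18, -0.04, -0.23 and 0.82 on UDCA arrays 1 to 6. CA arrays 1 and 2 were the highest, and UDCA arrays 1 and 6 both lay above CA array 6. The estimate was 1.34 ± 0.218 with CA (adjusted p = 9.11e-05) and 0.18 ± 0.218 with UDCA (adjusted p = 0.601), with a difference of 1.15 ± 0.309 (adjusted p = 0.013). The slides with both diets gave 0.78 and 0.38, and with slide as a block the CA estimate was 0.83. Tnfrsf13b passed the filter only through the CA knockout channel. On UDCA arrays its probe was well above background on 3 in knockout and 0 in wild type. The UDCA side of its difference was thus hardly measured. Another Tnfrsf13b probe was not well above background in any channel of any array, with CA ratios between -0.38 and 0.18. Tnfrsf13c, the BAFF receptor, rose with CA by 0.56 ± 0.128 (adjusted p = 0.00154) and was at 0.12 with UDCA (adjusted p = 0.57). It was not well above background in wild-type liver on any array, so the mean knockout signal was at least 1.42-fold higher with CA. The third receptor of the group, Tnfrsf17 (BCMA of plasma cells), was too dim.

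Cd40, the receptor through which T cells help B cells and macrophages, had ratios on CA arrays 1 to 6 of 1.90, 1.97, 0.65, 0.46, 0.89 and 0.50, against 0.51, 0.42, 0.19, 0.00, 0.11 and 0.70 on UDCA arrays 1 to 6. CA arrays 1 and 2 were again the highest. The estimate was 1.06 ± 0.168 with CA (adjusted p = 6.8e-05) and 0.32 ± 0.168 with UDCA (adjusted p = 0.194). The difference was 0.74 ± 0.238 (adjusted p = 0.0317), with 0.42 and 0.40 on the slides that held both diets. With slide as a block the CA estimate was 0.68, and the difference of 0.44 was no longer called (adjusted p = 0.134). It was also lost with no dye effect (adjusted p = 0.0678) and on leaving out CA array 1, 2 or 5 or any of UDCA arrays 1 to 5 (adjusted p up to 0.0769). Cd40 passed the filter only through the CA knockout channel. On UDCA arrays its probe was well above background on 3 in knockout and 0 in wild type, so that side was hardly measured.

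Among the remaining TRAF-binding receptors, Tnfrsf18, which encodes GITR of regulatory T cells, rose with CA by 0.60 ± 0.15 (adjusted p = 0.00293) and was at 0.37 with UDCA (adjusted p = 0.087). Tnfrsf1b, the second TNF receptor, rose with CA by 0.51 ± 0.116 (adjusted p = 0.00141) and was at 0.23 with UDCA (adjusted p = 0.183). Its other tested probe, however, was called lower with CA, at -0.24 ± 0.091 (adjusted p = 0.031), so the direction of Tnfrsf1b depended on the probe. With the probes averaged its CA estimate was 0.13 (adjusted p = 0.182). The sequences of these opposed probes follow, the second being placed by the scanner files over a genomic span longer than its 60 bases.
Tnfrsf1b, chr4:144626830-144626889, minus strand: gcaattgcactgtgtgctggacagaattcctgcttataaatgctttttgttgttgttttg
Tnfrsf1b, chr4:144635392-144635965, minus strand: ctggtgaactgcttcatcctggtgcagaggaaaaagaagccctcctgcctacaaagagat

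Tnfrsf4, which encodes OX40 of activated T cells, was at 0.06 with CA and -0.002277 with UDCA. Tnfrsf14, the receptor of LIGHT, was at -0.07 and -0.24; neither gene was called (adjusted p between 0.0818 and 0.992). Beside these receptors of lymphocytes, 8 of 12 T and NK cell markers were tested; 5 rose and 1 fell with CA, with a median of 0.47 and array medians between 0.21 and 0.84. With UDCA 2 rose, with a median of 0.22 and array medians between 0.09 and 0.39. The leading genes with CA were Lck at 1.06 and Cd3g at 0.80, while Cd2, Cd4, Klrb1c and Ncr1 were too dim.

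Of the 7 genes in the death domain list, which also held Eda2r, a receptor without a death domain, 6 were tested. With each diet 3 rose and 0 fell. Of all tested genes 37.8% rose and 22.4% fell with CA, and 17.2% rose and 8.76% fell with UDCA. The median ratio of the 6 was 0.26 with CA and 0.35 with UDCA. Tnfrsf10b, Tnfrsf21 and Tnfrsf25 passed the filter only through knockout channels. Tnfrsf21, which encodes death receptor 6, had ratios on CA arrays 1 to 6 of 2.14, 1.85, 1.53, 0.52, 1.02 and 0.66, against 0.35, -0.29, 0.52, -0.12, 0.18 and 0.79 on UDCA arrays 1 to 6. CA arrays 1 to 3, with the knockout in Cy5, were the highest, and the diets overlapped. The estimate was 1.29 ± 0.174 with CA (adjusted p = 1.48e-05) and 0.24 ± 0.174 with UDCA (adjusted p = 0.365), with a difference of 1.05 ± 0.246 (adjusted p = 0.00601). The slides with both diets gave 0.98 and 0.47. The difference was not called with the Feature Extraction ratios (0.92, adjusted p = 0.0965) or with median centring (1.06, adjusted p = 0.0526). A second tested probe of Tnfrsf21 gave 1.34 with CA and 0.29 with UDCA.

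Tnfrsf1a, the main receptor of soluble TNF, rose under both diets. On CA arrays 1 to 6 it gave ratios of 0.21, 0.49, 0.83, 0.52, 0.99 and 1.02, against 0.79, 0.52, 0.82, 0.82, 0.48 and 0.71 on UDCA arrays 1 to 6. All 12 arrays were above 0 and the diets overlapped. The estimate was 0.68 ± 0.11 with CA (adjusted p = 9.07e-05) and 0.69 ± 0.11 with UDCA (adjusted p = 0.00029). With median centring neither was called (adjusted p = 0.122 with CA and 0.104 with UDCA). The difference was -0.02 ± 0.156 (adjusted p = 0.954), with a 95% interval of -0.35 to 0.32, so a difference of up to about that size was not detectable here. In knockout the probe was saturated on 2 CA arrays and 1 UDCA array.

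Fas, the receptor of Fas ligand that triggers hepatocyte apoptosis, was called with UDCA and not with CA. Its ratios ran between -0.44 and 0.59 on the CA arrays, with a mean of 0.17 ± 0.34 (SD, 6 arrays), and between 0.48 and 0.85 on the UDCA arrays, with a mean of 0.64 ± 0.14 (SD, 6 arrays). The UDCA arrays were all above 0, and CA array 1 alone was below 0. The estimate was 0.17 ± 0.11 with CA (adjusted p = 0.197) and 0.64 ± 0.11 with UDCA (adjusted p = 0.000535). The difference was -0.47 ± 0.155 (adjusted p = 0.0359), with -0.45 on slide 3 and -0.31 on slide 4. With slide as a block it was -0.26 and not called (adjusted p = 0.411), and without CA array 1 it was -0.36 (adjusted p = 0.0584), where Fas itself was called higher with CA at 0.28 (adjusted p = 0.0229). The difference was also not called without CA array 3, 5 or 6 or UDCA array 1, 2, 3 or 5 (adjusted p up to 0.0961), with the Feature Extraction ratios (adjusted p = 0.0514) or with no dye effect (adjusted p = 0.0512). The gene of its ligand, Fasl, was too dim.

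Ngfr, the p75 neurotrophin receptor of nerve and stellate cells, was at 0.32 ± 0.115 under either diet, called with CA (adjusted p = 0.0252) and not with UDCA (adjusted p = 0.0558). The CA call was lost without CA array 1, 5 or 6 and with slide as a block (0.20, adjusted p = 0.273), and the difference was 0.00022, with a 95% interval of -0.35 to 0.35. Tnfrsf10b, the mouse receptor of TRAIL, was at 0.18 with CA (adjusted p = 0.128) and rose with UDCA by 0.39 ± 0.1 (adjusted p = 0.0104), lost without UDCA array 1 (adjusted p = 0.0538) and with slide as a block (0.22, adjusted p = 0.244). Its second probe turned this round, being called with CA at 0.30 (adjusted p = 0.0337) and not with UDCA at 0.26 (adjusted p = 0.107). In wild-type liver neither of these probes was well above background on any array. By the first probe the mean knockout signal was at least 1.13-fold higher with CA and at least 1.26-fold with UDCA. By the second probe it was at least 1.19-fold and at least 1.13-fold higher. These bounds carry no sampling error, and both of 1.13-fold stand beside ratios that were not called, so they show no rise. Tnfrsf25, death receptor 3, was at 0.20 with CA and 0.14 with UDCA (adjusted p = 0.123 and 0.398).

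The only member called lower by the probe standing for it was Tnfrsf11b, a secreted decoy receptor known as osteoprotegerin, which binds RANK ligand and TRAIL. On CA arrays 1 to 6 it gave ratios of -1.16, -1.29, -1.33, -0.87, -1.06 and -0.69, against -0.64, -0.50, -0.21, -0.37, -0.41 and -1.13 on UDCA arrays 1 to 6. All 12 arrays were below 0, and UDCA array 6 alone reached into the CA range. The estimate was -1.07 ± 0.122 with CA (adjusted p = 2.66e-06) and -0.54 ± 0.122 with UDCA (adjusted p = 0.00412). The difference was -0.52 ± 0.172 (adjusted p = 0.0355), with -0.48 on slide 3 and -0.36 on slide 4. It was not called on leaving out any of CA arrays 1, 2, 3 or 5 or any of UDCA arrays 1 to 5 (adjusted p up to 0.0886). Its probe was well above background in knockout liver on 4 of 6 CA arrays, against 5 of 6 in wild type, and on 5 UDCA arrays in knockout, against 6 in wild type. Its UDCA estimate with slide as a block was -0.39 and no longer called (adjusted p = 0.0537). The receptor whose ligand it competes for, Tnfrsf11a, moved the other way with CA, as given above.

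The 17 genes too dim to test were Cd70, Fasl, Lta, Tnfsf4, Tnfsf9, Tnfsf11, Tnfsf15 and Tnfsf18 among the ligands, Cd27, Relt, Tnfrsf8, Tnfrsf9 and Tnfrsf17 among the TRAF-binding receptors, Eda2r, and the decoys Tnfrsf22, Tnfrsf23 and Tnfrsf26. Several T cell costimulators of the family, OX40 ligand (Tnfsf4), 4-1BB (Tnfrsf9) and its ligand (Tnfsf9) among them, are in this group. Failing the filter does not show that a gene was absent. In the knockout channel of the CA arrays Fasl, Relt, Eda2r and Tnfrsf9 reached 4 of 6 arrays, below the 5 required. In wild type the same genes reached 0 or 1 of the CA arrays. Some were not well above background in any wild-type CA channel. Their mean knockout signal was at least 1.25-fold higher for Eda2r, at least 1.25-fold for Tnfrsf9 and at least 1.14-fold for Fasl. These bounds carry no sampling error and were not tested. Lta reached 2 knockout arrays with CA and 0 in the other channels. Tnfsf15 and Tnfrsf22 were seen on 4 knockout CA arrays and also in wild type, on 4 and 3 CA arrays. Cd70, Tnfsf4, Tnfsf18, Tnfrsf8, Tnfrsf17 and Tnfrsf23 were not well above background in any channel of any array. Psmg2 was bright in all channels and not called, at -0.11 with CA and -0.03 with UDCA.

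Genes that carry the signal of these receptors inside the cell were also examined. Adaptors and kinases of the receptor complexes were tested for 23 of 23 genes; 11 rose and 5 fell with CA, 7 rose with UDCA, and in the difference 7 were higher and 1 was lower. The list's median was 0.22 with CA and 0.02 with UDCA, against 0.10 and 0.04 over all genes. Over all tested genes 37.8% rose and 22.4% fell with CA and 17.2% rose with UDCA. The share of the list that fell with CA was thus near that of all genes. In the difference 18.8% of all tested genes were higher and 8.89% lower. Traf1, an adaptor that NF-κB itself induces, rose by 2.18 ± 0.165 with CA and 0.74 ± 0.165 with UDCA. Birc3, the ubiquitin ligase cIAP2, rose by 1.96 ± 0.115 with CA (adjusted p = 3.23e-09) and was at -0.02 with UDCA (adjusted p = 0.945), a difference of 1.98 ± 0.163 (adjusted p = 7e-06). Its second probe was at 0.53 with CA. Its paralog Birc2 (cIAP1) rose by 1.53 with CA and was at 0.28 with UDCA, and Tab1, a partner of the kinase TAK1, rose by 1.32 and 0.49. Map3k14, the kinase NIK of the alternative NF-κB pathway, rose by 1.30 and 0.79, and Traf3, which holds NIK low, by 0.91 and 0.70. Mlkl, the executor of necroptosis, rose by 1.59 ± 0.139 with CA and 1.90 ± 0.139 with UDCA, and its difference of -0.30 was not called. The 5 that fell with CA, named after their values were seen, were Traf6, Map3k5, Ripk1, Map3k7 and Bid, between -0.29 and -0.46. Traf6 was the 1 lower in the difference, at -0.47. For Ripk1 the 2 other probes gave -0.37 and 0.09 with CA, so its direction depended on the probe. Cflar was not called with CA by its brightest probe, at -0.11 (adjusted p = 0.513), which was saturated on 1 CA array. Its 4 other probes all stood at -0.51 or lower with CA, so the count of 5 depended on the choice of probe.

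Of 11 genes listed with NF-κB subunits and their kinases, 10 were tested. With CA 4 rose and 2 fell, with UDCA 2 rose, and in the difference 3 were higher and 2 lower. The list also held Rnf31, Rbck1 and Sharpin, which are neither subunits nor kinases of NF-κB. They were called in no comparison and stood at -0.02, -0.26 and 0.05 with CA. The CA counts and the UDCA count of this mixed list were near the shares of all tested genes given above. In the difference 18.8% of all tested genes were higher and 8.89% lower. Those that rose with CA were the subunit genes Relb (2.97 ± 0.153), Nfkb1 (1.85 ± 0.162), Nfkb2 (1.64 ± 0.163) and Rela (0.58 ± 0.139). With UDCA, Relb rose by 1.64 and Nfkb2 by 0.65, while Nfkb1 was at 0.39 (adjusted p = 0.0984). Other probes of Nfkb1 gave smaller CA values of 0.37, 0.71 and 1.01, and the second of Rela 0.05. The genes that fell with CA encode subunits of the kinase that frees NF-κB: Chuk at -1.19 ± 0.128 and Ikbkg at -0.47 ± 0.127, Ikbkg being named after its values were seen. They were also the 2 lower in the difference, at -0.88 and -0.70. The third gene of this kinase, Ikbkb, was at -0.01 with CA (adjusted p = 0.91).

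Inhibitors and feedback genes of NF-κB, many of them its own targets, were tested for 12 of 13. With CA 10 rose and 1 fell, with UDCA 7 rose and 1 fell, and in the difference 6 were higher and 0 lower. Of all tested genes 37.8% rose and 22.4% fell with CA, and 17.2% rose and 8.76% fell with UDCA. In the difference 18.8% of all tested genes were higher and 8.89% lower. The list's median was 0.94 with CA and 0.54 with UDCA, with array medians between 0.81 and 1.21 on CA arrays and between 0.30 and 0.82 on UDCA arrays. Tnfaip3, which encodes the feedback enzyme A20, rose by 2.65 ± 0.143 with CA and 2.45 ± 0.143 with UDCA. Tnip1, the partner of A20, rose by 1.93 and 1.25. Tnfaip8 rose by 2.69 with CA and 0.70 with UDCA (difference 2.00 ± 0.248), and Nfkbie by 1.98 and 0.73. Nfkbia, the classical inhibitor, rose by 1.24 with CA and was at 0.01 with UDCA (adjusted p = 0.969). Bcl3 rose by 0.82 and 0.70. The gene that fell under both diets was Otulin, named after its values were seen, at -0.82 and -0.49.

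The plot of CA against UDCA ratios shows that most of the signalling genes with large ratios lay above equal change. Among those below it were Mlkl, whose difference was not called, and Chuk, Ikbkg and Traf6, whose differences were called. Chuk lay at -1.19 with CA and -0.31 with UDCA. Genes for the release of ligands from the cell surface were tested for 5 of 5. All 5 rose with CA and 3 with UDCA, and 1 was higher in the difference, against 37.8%, 17.2% and 18.8% of all tested genes. Timp3, which inhibits the TNF-releasing protease ADAM17, rose by 2.13 ± 0.185 with CA and 0.96 ± 0.185 with UDCA, a difference of 1.17 ± 0.261 (adjusted p = 0.00555). Rhbdf2 and Rhbdf1, the rhomboid-like proteins that bring ADAM17 to the surface, rose by 1.44 and 1.21 with CA and by 0.90 and 0.67 with UDCA. Adam17 rose by 0.49 with CA and was at 0.16 with UDCA (adjusted p = 0.253), and Adam10 rose by 0.31 with CA and was at 0.10 with UDCA (adjusted p = 0.517).

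**Figure D4:**
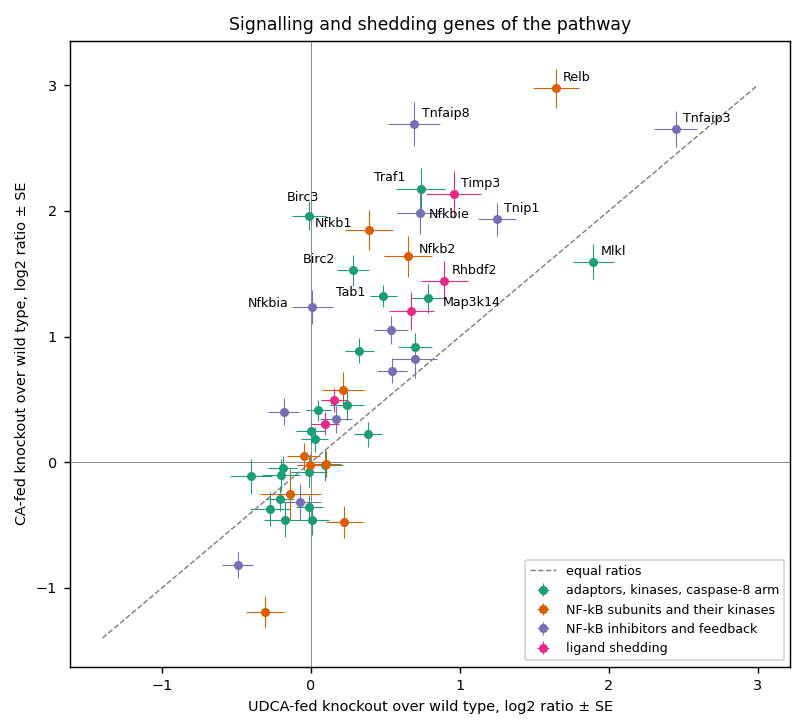
Log2 ratio of knockout over wild type with CA (vertical axis) against that with UDCA (horizontal axis) for tested signalling and shedding genes, each with its SE in both directions, coloured by list. The dashed line marks equal ratios; Birc3 lies at 1.96 with CA and -0.02 with UDCA, and Mlkl at 1.59 and 1.90.

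Promoters were examined for the kappa B consensus of NF-κB, the only motif searched, on either strand of the 250 bases before the gene start. RefSeq promoters (GRCm38.p6) matched 34 of the 43 family genes, and 4 of these held the consensus (11.8%), against 8.23% of 27025 genes. The 4 were Ltb, Tnfrsf25, Tnfrsf8 and Tnfrsf9; of 22 tested family genes with a promoter, 2 held it (9.09%). These shares were close to each other. Ltb is shown because it was the only called member with the consensus, which is in capitals and begins 87 bases before the start; the match is a description of letters and no site of binding.
Ltb promoter, chr17:35194257-35194506, plus strand, GRCm38.p6: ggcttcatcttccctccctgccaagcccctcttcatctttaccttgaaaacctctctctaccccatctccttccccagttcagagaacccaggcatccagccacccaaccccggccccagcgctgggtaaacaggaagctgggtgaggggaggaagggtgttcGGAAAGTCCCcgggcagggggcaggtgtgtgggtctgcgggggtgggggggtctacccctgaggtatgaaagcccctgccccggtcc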

How the data were processed

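Liver RNA was hybridised on 12 arrays in 2 colours. Per the file headers, Feature Extraction 9.5.3 gave the raw mean and local background intensity of each spot, and processed intensities that were background-subtracted, detrended and dye-normalized. Per the file headers, it also gave the log10 of red divided by green. In the deposited series table are log2 ratios of unstated normalization. Set against the scanner ratios of bright spots, its columns had an absolute Pearson correlation between 0.767 and 0.978. Its CA columns ran as wild type over knockout and were turned, its UDCA columns ran as knockout over wild type, and column medians lay between -0.046 and 0.049. Probe positions are mm7.

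Raw intensities were corrected with normexp (offset 50) and loess within arrays, using R 4.3.3, limma 3.58.1 and data.table version 1.17.8. From 45018 spots, 1639 control spots were left out (weight 0 in loess) and spots of a probe were averaged, giving 41174 probes. Outlier-flagged values were set to missing (2399 of 260256 for tested probes). The test took the 21688 probes that were well above background in 1 channel of a group on 5 or more of its 6 arrays. RefSeq accessions named 15628 of these. The brightest tested probe stood for its gene.

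Both diets were fitted together with limma, with a dye effect per probe (called for 2794 probes), 9 residual and 5.95 prior degrees of freedom. Precision is limited by how many arrays there were. The fit was tested on simulated data. Slide 1 held CA arrays 1 and 2, slide 2 CA arrays 3 and 4, slide 3 UDCA arrays 1 and 2 beside CA array 5, slide 4 UDCA arrays 3 to 5 beside CA array 6, and slide 5 UDCA array 6. Values for slides 3 and 4 are plain CA minus UDCA means, whose CA array carried the knockout in Cy3.

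Members, roles and lists were chosen with earlier results of these data known. All 12 ratios were to be given for up to 12 members called with CA or in the difference, with 1 direction on all measured arrays of a group, by size of the CA estimate. Pathway lists gave up to 4 called genes per comparison and marker lists the 2 largest changes. Alternatives covered background correction, normalization, filter, dye, slide, flags, probe choice, the series table and left-out arrays. One of these, leaving out CA arrays 3 and 4 together, was chosen after seeing the data.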

Additional observations from a re-analysis of the deposited data

Results flagged for a closer look

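In 5 of 54 sets of 5 or 6 ratios examined, 1 array lay far from the others; chance flags about 1 in 20 such sets. Tnfrsf19 was at 1.02 on CA array 2, below a nearest value of 1.83. Tnfrsf11a was at 1.16 on UDCA array 6, above a nearest value of 0.23. Tnfsf8 was at -1.98 on UDCA array 5, below a nearest value of -0.33. Ltbr was at 0.33 on CA array 1 and Psmg2 at 1.09 on CA array 4, each with a nearest value of -0.07.

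For 11 of the 27 tested members the CA minus UDCA difference passed the test, as it did for 27.6% of all tested genes. It was positive for Tnfrsf19 (1.90), Tnfsf13b (1.53), Tnfrsf11a (1.38), Tnfrsf13b (1.15), Tnfrsf21 (1.05), Tnfsf8 (0.90), Tnf (0.77), Cd40 (0.74) and Tnfsf13 (0.68). It was negative for Tnfrsf11b (-0.52) and Fas (-0.47). No array of one diet overlapped with the other for Tnfrsf19, Tnfsf13b, Tnfsf13 and Tnf. How many of all tested genes did likewise was not counted, so the lack of overlap shows nothing particular to these members. Of the members with a positive difference, 6 passed the filter only through the CA knockout channel: Tnfsf13b, Tnfrsf11a, Tnfrsf13b, Tnfsf8, Tnf and Cd40. Tnf was not well above background in either channel of any UDCA array, so its value is no measured difference between the diets. With slide as a block the calls of Cd40, Fas, Tnf and Tnfsf8 were lost (adjusted p between 0.0711 and 0.411).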

How the results depend on the processing

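No called member reversed its direction under any alternative run. For genes called lower with CA (1), no filter on dim probes gave 2, and leaving out an array gave 1 to 2. For genes called higher with CA (17), median centring in place of loess gave 12, slide as a block 14, and leaving out an array 15 to 17. With UDCA the count of higher genes (8) was 2 with median centring, 3 with slide as a block, 12 with the Feature Extraction ratios, and 5 to 9 on leaving out an array, the lowest without UDCA array 1. The count lower with UDCA (1) was 2 with the Feature Extraction ratios, 0 with median centring and 0 with slide as a block, and 1 whichever array was left out. In the difference the count of higher genes (9) was 4 with median centring, 6 with slide as a block, 7 with no dye effect, and 7 to 10 on leaving out an array. The count of lower genes (2, Fas and Tnfrsf11b) was 1 with the Feature Extraction ratios, 0 with median centring, 1 with no dye effect, 1 without CA arrays 3 and 4 together, and 0 to 2 on leaving out an array. The causes were not tested, except that fewer arrays were used where some were left out. With slide as a block, too, CA arrays 1 and 2 and UDCA array 6 added nothing to the estimated ratios. Median centring moved the median of all genes to 0.30 with CA and 0.32 with UDCA from 0.10 and 0.04. The share of higher among all called genes was then 83.9% for CA, 94.5% for UDCA and 86.8% for the diet contrast, against 62.8%, 66.3% and 67.9% with loess. With the Feature Extraction ratios dim members had larger CA values, such as Tnfsf13b at 3.76, Tnf at 1.99, Cd40 at 2.27, Tnfrsf13b at 2.47 and Tnfrsf11b at -2.80. Tnfrsf12a could not be fitted with slide as a block. The replicate numbers did not pair the samples: residual correlations of arrays with the same number ran from -0.579 to 0.123, and 0 of 6 CA arrays lay closest to the UDCA array of its number. With a replicate block the difference had 9 higher and 0 lower, the lost calls being Fas (adjusted p = 0.0844) and Tnfrsf11b (adjusted p = 0.0791). The technical dye swap could not be told from the residuals, whose highest correlation was 0.123 for CA and 0.0729 for UDCA.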
